A study of Mus musculus with 18 samples.

Results

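Coagulation factor genes encode the plasma proteins that form a fibrin clot, most of which are made by hepatocytes. The members described here were chosen by symbol as 10 genes, *F2*, *F5*, *F7*, *F9*, *F10*, *F11*, *F12*, *F13b*, *Klkb1* and *Proc*, and symbols were joined to the Ensembl identifiers of the deposited count lists. Of these 10 genes, 9 had their identifier among the 22524 genes listed, and all 9 were among the 13353 genes with enough counts to be tested. The GENCODE M21 identifier of *Klkb1*, which encodes plasma prekallikrein, was not among those listed, so *Klkb1* was not analysed as a member. A listed gene that shares exonic bases with it is described below.

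RNA-Seq was carried out on the liver of 10 A226Y and 8 WT mice, with 1 library per mouse. All mice were C57BL/6 females aged 15 months. A226Y mice were heterozygous for a conditional knock-in allele of *Rps2*, a protein of the small ribosomal subunit, whose mutation raises the rate of amino acid misincorporation, while WT controls carried the same ubiquitous CMV-Cre transgene and no knock-in allele. The allele was made in 129/Sv embryonic stem cells and backcrossed to C57BL/6. Excision of its stop cassette was incomplete, so A226Y livers were mosaics of cells with the expressed mutant allele and cells with a silent targeted allele, and the effects of the mutation and of a lower *Rps2* dose cannot be told apart between these 2 groups. *Rps2* itself averaged 68.6 ± 13.3 CPM (counts scaled to the effective size of the library) in A226Y mice and 114 ± 13.03 CPM in WT mice (SD, n = 10 and 8), with no overlap between the groups. Its log2 fold change was -0.73 ± 0.11 (SE here and for every log2 fold change that follows; adjusted p = 0.000772). Reads were counted per gene without distinguishing alleles, so this value does not show which allele was transcribed.

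In the coagulation cascade, inactive precursors of serine proteases are cut in turn into active enzymes until thrombin turns fibrinogen into fibrin. Tissue factor starts the extrinsic pathway through factor VII, contact with surfaces starts the intrinsic pathway through factors XII, XI and IX, and both meet at factor X. Factors II, VII, IX and X and protein C carry a domain whose glutamate residues are carboxylated by a vitamin K-dependent enzyme in the endoplasmic reticulum, which lets them bind phospholipid through calcium. All of them pass through the secretory pathway before they enter the blood.

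For orientation, the stretch around the transcription start is shown for the vitamin K-dependent procoagulant genes, because these include members that passed and that did not pass the test below. Each sequence runs from 100 bases before to 20 bases after the start, 5′ to 3′ on the gene's own strand, taken from RefSeq on GRCm38.p6. Capitals mark matches on either strand to an HNF4 motif (CAAAGGTCA), a C/EBP motif (TTGCNNAA) or a CCAAT box (CCAAT). HNF4 and C/EBP are transcription factors of hepatocytes, and the motifs were chosen after these promoters had been seen. The stretch of *F2* holds none of these letters.
*F2*, chr2:91636438-91636557, minus strand: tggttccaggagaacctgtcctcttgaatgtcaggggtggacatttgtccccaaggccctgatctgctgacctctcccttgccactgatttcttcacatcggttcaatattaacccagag
*F7*, chr8:13025934-13026053, plus strand: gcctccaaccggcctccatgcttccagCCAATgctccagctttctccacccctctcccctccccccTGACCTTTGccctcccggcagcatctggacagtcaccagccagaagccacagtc
*F9*, chrX:59999364-59999483, plus strand: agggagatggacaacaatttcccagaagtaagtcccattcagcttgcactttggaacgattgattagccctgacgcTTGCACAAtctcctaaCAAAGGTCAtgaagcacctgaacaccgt
*F10*, chr8:13037208-13037327, plus strand: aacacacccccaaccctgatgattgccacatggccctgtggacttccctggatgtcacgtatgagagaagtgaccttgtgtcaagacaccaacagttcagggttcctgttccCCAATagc

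A RefSeq promoter of 300 bases (250 before the start) was at hand for 9 of the 10 members, *Klkb1* included. The HNF4 motif lay in those of *F7* and *F9*, and in 0.478% of the 32851 mouse promoters searched. The C/EBP letters were found for *F9*, *F11* and *Klkb1* (10.8% of all promoters), and the CCAAT box for *F7*, *F10*, *F12* and *Klkb1* (37.4%). The motifs do not overlap in these 4 sequences. A match describes the letters only. *F7* and *F9*, which both hold the HNF4 motif, had log2 fold changes of -0.41 and -0.19 in the comparison that follows.

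The comparison of A226Y with WT liver asks whether these transcripts are set at another level in mice with error-prone ribosomes. All 9 members measured had a negative log2 fold change, and 5 of them, *F2*, *F7*, *F10*, *F11* and *Proc*, passed edgeR's quasi-likelihood test at a Benjamini-Hochberg adjusted p under 0.05. None was called higher by edgeR, by the other tests run (the likelihood ratio and exact permutation tests, limma-voom and DESeq2) or at an unadjusted p under 0.05. Over all tested genes, 7.03% were called lower, 7.27% were called higher and 51% had a negative value. The median was -0.32 over the members and -0.0044 over all genes. The exact permutation test of log2 CPM called 5 members lower as well (*F13b* in place of *F11*), against 6.16% of all genes. At an unadjusted p under 0.05, 8 of the 9 members were lower, against 14.7% of all genes. In RNA from whole tissue, fewer cells of a type and less RNA per cell cannot be told apart.

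**Figure D1:**
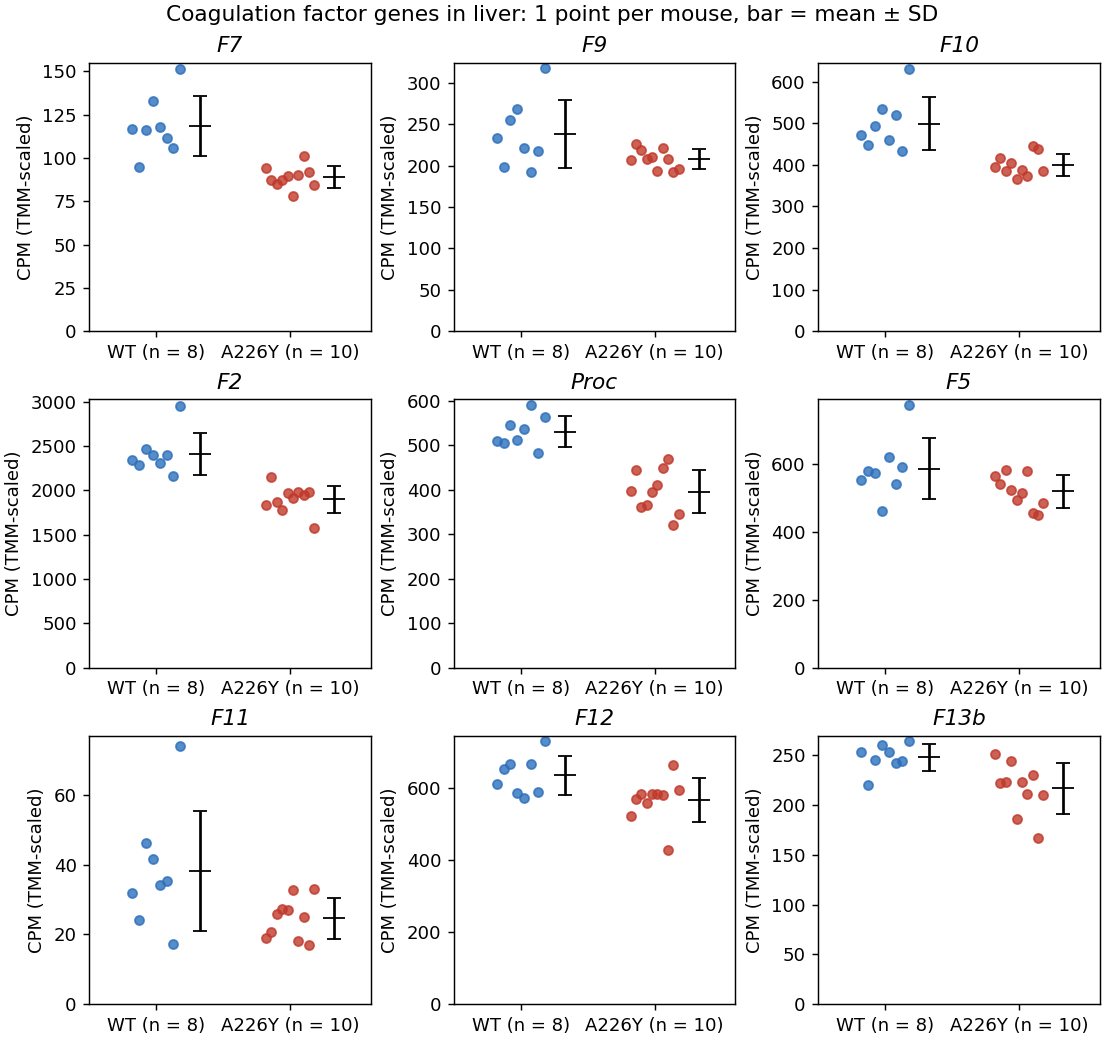
Level of the 9 measured coagulation factor genes in the liver of each mouse, in CPM on a linear axis that starts at 0, with 1 point per mouse and the bar giving mean ± SD for WT (n = 8, blue) and A226Y (n = 10, red). The groups are separate for *F2* and *Proc*, nearly separate for *F7* and *F10*, and overlap for the other members, and the highest WT point in 8 of 9 panels is the same mouse (WT 33).

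Factor VII, encoded by *F7* (chr8:13026034-13035809 on GRCm38), is the protease that tissue factor binds to start clotting. Its level ran from 78.2 to 101 CPM in A226Y mice with a median of 88.5, and from 94.9 to 151 CPM in WT mice with a median of 116. In 9 of the 10 A226Y mice it was below every WT mouse. It fell by 24.8% on average, from 118 ± 17.2 to 88.9 ± 6.22 CPM, with a log2 fold change of -0.41 ± 0.07 (adjusted p = 0.00252).

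*F10* (chr8:13037308-13056676) encodes factor X, the point where the extrinsic and intrinsic pathways join and the enzyme that activates prothrombin. A226Y mice had between 366 and 444 CPM (median 391) and WT mice between 432 and 632 CPM (median 483). The groups met over a narrow range, and 8 of 10 A226Y mice lay below every WT mouse. The mean fell by 19.9%, from 499 ± 64.1 to 400 ± 26.3 CPM, and the log2 fold change was -0.32 ± 0.07 (adjusted p = 0.00713).

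Prothrombin, the precursor of thrombin, is the product of *F2* (chr2:91625320-91636414). Its transcript ranged from 1577 to 2155 CPM in A226Y mice (median 1936) and from 2159 to 2957 CPM in WT mice (median 2369). The highest A226Y mouse was thus just below the lowest WT mouse, and the groups did not overlap, which was so for 0.285% of all tested genes in this direction. The mean fell by 21.2%, from 2415 ± 238 to 1902 ± 153 CPM (log2 fold change -0.34 ± 0.07, adjusted p = 0.00476).

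*Proc* encodes protein C, which once activated cuts factors V and VIII and so restrains clotting. It ranged from 321 to 469 CPM (median 396) in A226Y mice and from 482 to 589 CPM (median 523) in WT mice. Here too every A226Y mouse was below every WT mouse. The mean fell by 25.4%, from 530 ± 35.1 to 396 ± 47.9 CPM, with a log2 fold change of -0.42 ± 0.07 (adjusted p = 0.00219). The anticoagulant member of the set was thus called lower, as were the procoagulant *F2*, *F7* and *F10*.

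The fifth vitamin K-dependent member, *F9* (chrX:59999464-60030759), encodes factor IX, whose loss is haemophilia B. Its level was 192.9 to 226.4 CPM in A226Y mice (median 208) and 192.7 to 318 CPM in WT mice (median 227). The lower ends of the groups coincide, and only the upper part of the WT range, from 4 mice, lay above all A226Y mice. The log2 fold change was -0.19 ± 0.08 and missed the threshold (adjusted p = 0.119). Without WT 33 it was -0.12 (adjusted p = 0.248). WT mice varied more than A226Y mice in this gene, with a coefficient of variation of 17.3% against 5.68%.

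Among the members without that domain, *F11* (chr8:45241174-45262031) encodes factor XI, the protease that activates factor IX. It had 16.9 to 33.1 CPM in A226Y mice (median 25.4) and 17.2 to 74.1 CPM in WT mice (median 34.8). The ranges overlap over nearly the whole A226Y range, and 5 of 8 WT mice exceeded every A226Y mouse. Its mean fell by 35.5%, from 38.1 ± 17.2 to 24.6 ± 5.79 CPM, and its log2 fold change of -0.63 ± 0.21 was the largest of the 9 in size and had the largest SE (adjusted p = 0.0473). Its adjusted p was 0.119 when log2 CPM was compared by exact permutation, and without mouse WT 33, at 74.1 CPM, its log2 fold change was -0.42 with an adjusted p of 0.111. It was called in 5 of the 18 fits that each left out 1 mouse.

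*F5* (chr1:164151838-164220277) encodes factor V, the cofactor with which factor X cuts prothrombin. It ran from 450 to 583 CPM in A226Y mice (median 519) and from 462 to 774 CPM in WT mice (median 576). Most mice of both groups shared the same range, and the log2 fold change was -0.18 ± 0.08 (adjusted p = 0.169). Without WT 33 it was -0.11 (adjusted p = 0.351). In the annotation 262 exonic bases of *F5* are covered on the opposite strand by *Gm16548*, a long noncoding RNA that was not in the lists, and whether counting used strand is not given in the sources used here.

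Factor XII, which contact with negatively charged surfaces activates, is encoded by *F12* (chr13:55417958-55426793). It had 427 to 665 CPM in A226Y mice (median 581) and 573 to 730 CPM in WT mice (median 633), and its log2 fold change was -0.16 ± 0.08 (adjusted p = 0.148). *F13b* (chr1:139501702-139523752) encodes the carrier subunit of factor XIII, the enzyme that cross-links fibrin, and ranged from 166 to 252 CPM in A226Y mice (median 222) and from 220 to 265 CPM in WT mice (median 250). The groups overlapped in both genes, with 4 of 10 A226Y mice below every WT mouse in each. The log2 fold change of *F13b* was -0.19 ± 0.07 and missed the threshold with edgeR (adjusted p = 0.0723), but not in the exact permutation test (adjusted p = 0.0484) or with DESeq2 (adjusted p = 0.0497).

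By kind, 4 of the 5 vitamin K-dependent members were called lower, and their values ran from -0.19 to -0.42 around a median of -0.34. Of the 4 other members 1 was called, with a median of -0.19 and values from -0.16 to -0.63. The difference between these kinds was not tested, and the intervals of *F9*, *F5*, *F12* and *F13b* do not show that these genes were unchanged.

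Per length of exon, the order of the levels was the same in both genotypes. In RPKM, computed here as CPM per kilobase of exon, WT livers held 525.6 ± 51.8 of *F2*, 324 ± 27.5 of *F12*, 214 ± 14.2 of *Proc* and 183 ± 23.5 of *F10*. They were followed by *F13b* at 98.0 ± 5.45, *F9* at 87.2 ± 15.1, *F5* at 79.0 ± 11.98, *F7* at 63.6 ± 9.23 and *F11* at 17.0 ± 7.67 RPKM. Prothrombin thus had the most abundant transcript and factor XI the least abundant. Among WT livers, neighbours from *F13b* to *F7* differed by less than the sum of their SDs, as did *Proc* and *F10*. For A226Y livers *F5* and *F7* were further apart, at 69.9 ± 6.53 and 47.8 ± 3.35 RPKM. In A226Y livers the ends of this order were 414 ± 33.3 RPKM for *F2* and 10.97 ± 2.58 RPKM for *F11*.

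A gene that overlaps the missing member was listed. *Gm45753* (chr8:45269671-45308466) shares 2267 exonic bases with *Klkb1*, which is 82.3% of its own exons and 43.2% of those of *Klkb1*, and a further 313 bases with *Cyp4v3*. Its level was 73.2 to 182 CPM in A226Y mice (median 162) and 145 to 173 CPM in WT mice (median 162), and the log2 fold change was -0.09 ± 0.13 (adjusted p = 0.680). The medians were alike and the A226Y range enclosed the WT range. The published methods name an older build, and whether its annotation gave this identifier to *Klkb1* was not determined. The value is therefore shown apart, and the counts and medians over the members leave it out.

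**Figure D2:**
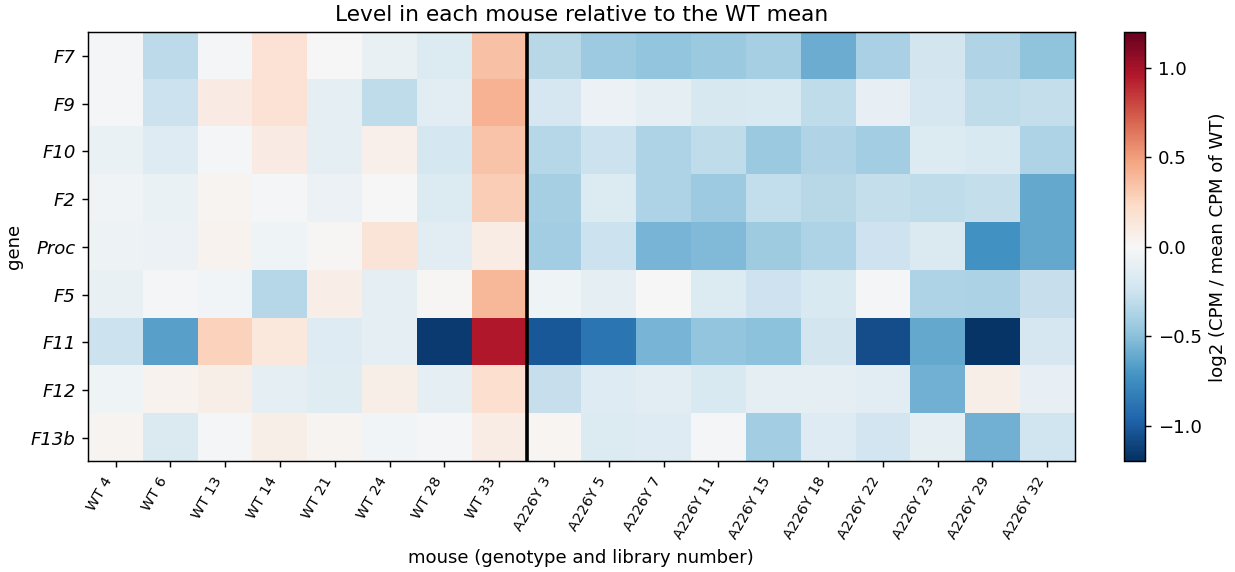
Level of each member in each mouse as log2 of its CPM over the mean CPM of the 8 WT mice, with blue below and red above that mean, WT mice on the left of the black line and A226Y mice on the right. The A226Y side is blue in nearly all fields, the WT 33 column is red throughout, and *F11* has the widest spread, with WT 28 as low as the lowest A226Y mice.

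Taking the mice in turn, all 10 A226Y mice were below the WT mean in *F2*, *F5*, *F7*, *F9*, *F10*, *F11* and *Proc*, and 9 of 10 were in *F12* and *F13b*. The members did not move by the same amount in each mouse. Mouse A226Y 29 had the lowest A226Y value in 5 of the 9 genes and the highest in 1 gene, and A226Y 23, whose library was the deepest with 62126131 counts, had the highest in 3 genes. Among WT mice, WT 33 was the highest in 8 of 9 genes, with WT 24 highest in the ninth, and WT 28 was below the WT median in 8 genes.

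WT 33 and A226Y 29 also stood apart in other transcripts. The summed level of 14 acute phase genes was 35673 CPM in A226Y 29 and 5362 to 7885 CPM in the other A226Y mice, while it was 17041 CPM in WT 33, 12742 CPM in WT 14 and 5488 to 8099 CPM in the other WT mice. WT 33 had 739 CPM over 7 markers of B and plasma cells, the highest of all mice, and WT 13 had 388 CPM. With WT 33, WT 13 and A226Y 29 left out together, a choice made after seeing the data, *F2*, *F7*, *F10* and *Proc* kept their call and *F11* lost it. The share of all genes called in that fit is not given here. Without these mice *F11* had a log2 fold change of -0.27 (adjusted p = 0.286), *F9* had -0.08 (adjusted p = 0.460) and *F5* had -0.08 (adjusted p = 0.488).

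Once the genotype means were subtracted, the members followed a common level across the 18 mice to different degrees. The correlation of a member's log2 CPM with the mean of the other members was 0.77 for *F9*, 0.71 for *F2*, 0.667 for *F10* and 0.665 for *F7*. It was 0.59 for *F11*, 0.41 for *F5*, 0.34 for *Proc*, 0.27 for *F13b* and 0.01 for *F12*. These values are descriptions, since all genes of a mouse share its library and scaling and WT 33 alone is high in most of them. *Proc*, with the most negative value among the vitamin K-dependent genes, was thus among the members least like the rest within genotypes.

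The 5 genes outside the set most like the mean of the members were chosen by Pearson's r of residuals over 18 mice. They were *Pld1* (0.89), *Fras1* (0.87), *Gc* (0.87), *Col4a3* (0.87) and *Gpm6b* (0.85). Spearman's rank correlations were lower, at 0.75, 0.62, 0.74, 0.72 and 0.70 in the same order of genes. A226Y and WT means in CPM were low for *Fras1* (3.09 and 4.50), *Col4a3* (1.14 and 2.21) and *Gpm6b* (0.52 and 0.56). The genes were picked for a high r, so these correlations are descriptions. *Gc*, which encodes the vitamin D-binding protein of plasma, was lower in A226Y mice with a log2 fold change of -0.26 ± 0.08 (adjusted p = 0.0274). The other 4 were not called, with values from -0.11 for *Pld1* (adjusted p = 0.573) to -0.95 for *Col4a3* (adjusted p = 0.167).

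**Figure D3:**
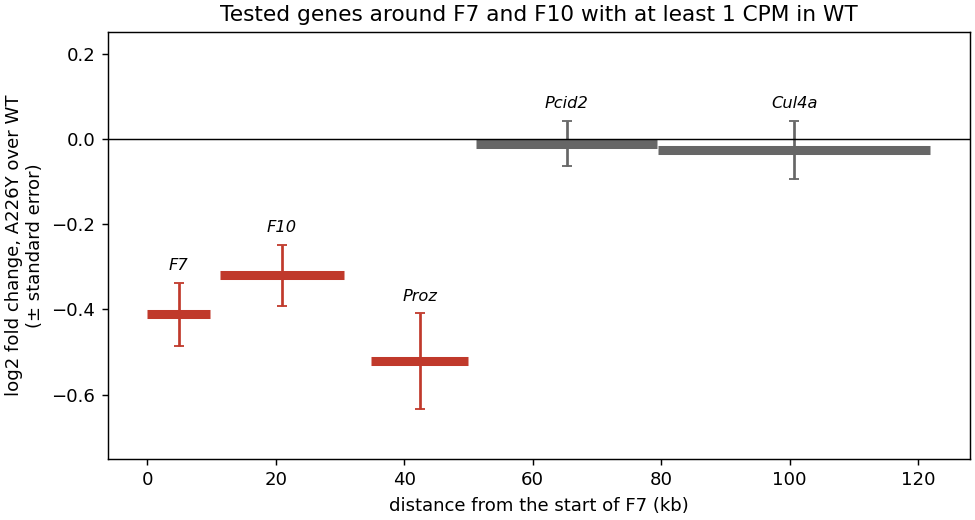
Log2 fold change (A226Y over WT, ± SE) of the tested genes with at least 1 CPM in WT around *F7* and *F10*, drawn against distance from the start of *F7* in kb, with bars spanning each gene and red for an adjusted p under 0.05. *F7*, *F10* and *Proz* lie next to each other and are all lower, while *Pcid2* and *Cul4a* lie near 0.

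*F7* and *F10* are neighbours, with 1499 bases between them, and the next gene after a gap of 4238 bases is *Proz*. *Proz* encodes protein Z, another vitamin K-dependent plasma protein, which serves as cofactor of an inhibitor of activated factor X. It had 188 ± 25.3 CPM in A226Y mice and 270 ± 57.2 CPM in WT mice. The log2 fold change was -0.52 ± 0.11 (adjusted p = 0.00575). The adjoining *Pcid2* (-0.01 ± 0.05, adjusted p = 0.913) and *Cul4a* (-0.03 ± 0.07, adjusted p = 0.836), which have no part in clotting, were not called. Within 100 kb of any member, 34 other genes were tested, of which 1 was called lower (*Proz*) and 1 higher (*Nsd1*, 0.19, adjusted p = 0.0306).

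The other genes of haemostasis were taken from a list of 36, of which 33 were tested. Of these 33 genes, 7 were called lower and 1 higher, and 25 had a negative value, with a median of -0.19. The shares over all tested genes, for these and the lists below, were 7.03% lower, 7.27% higher and 51% negative. With surrogate variables, described below, 0 of these genes were called lower. The 3 fibrinogen chains, the substrate of thrombin, were not called, with log2 fold changes of -0.25 ± 0.22 for *Fga* (adjusted p = 0.487), -0.20 ± 0.21 for *Fgb* (adjusted p = 0.558) and -0.21 ± 0.21 for *Fgg* (adjusted p = 0.534). WT 33 and A226Y 29 reached 22977 and 18011 CPM over the 3 chains, against group medians of 8930 and 8123 CPM. None of the 3 chains passed at an unadjusted p under 0.05 or with any of the other tests. The acute phase list, which holds genes raised in the liver by inflammation, had none of 14 called by edgeR's quasi-likelihood test, 1 lower at an unadjusted p under 0.05, 1 lower by the likelihood ratio test and 4 lower with DESeq2. Over all genes and in either direction, DESeq2 called 2418 and the likelihood ratio test 2085, against 1910 by the quasi-likelihood test.

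None of the 5 other procoagulant factors and cofactors tested passed edgeR's quasi-likelihood test, an unadjusted p under 0.05 or the other tests. *F8*, the cofactor of factor IX, which sinusoidal endothelial cells make, had 17.7 ± 3.68 CPM in A226Y mice and 17.1 ± 3.23 CPM in WT mice (log2 fold change 0.05 ± 0.13, adjusted p = 0.832). *Vwf*, the carrier of factor VIII in plasma, had 0.16 ± 0.15 (adjusted p = 0.495), and *F3*, which encodes tissue factor, had 0.08 ± 0.12 (adjusted p = 0.705). The kininogens, cofactors of the contact pathway, had -0.26 for *Kng1* (adjusted p = 0.331) and -0.10 for *Kng2* (adjusted p = 0.582). *F13a1*, the catalytic subunit of factor XIII, which macrophages and platelets carry, was below the count filter.

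Among 9 inhibitors and anticoagulants tested, 2 were called lower. These were *Proz* and *Serpina10*, which encodes the protein Z-dependent protease inhibitor (-0.59 ± 0.16, adjusted p = 0.0215). The pair that acts together on factor X was therefore lower together with *F10*. *Serpinc1*, which encodes antithrombin, had 2235 ± 189 CPM in A226Y mice and 2513 ± 126 CPM in WT mice, with a log2 fold change of -0.17 ± 0.06 that missed the threshold with edgeR (adjusted p = 0.0821) but not by exact permutation (adjusted p = 0.0275).

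Of 8 genes of fibrinolysis, the breakdown of fibrin, 2 were called lower. *Hrg*, a plasma protein that binds plasminogen, had -0.52 ± 0.13 (adjusted p = 0.0148), and *Habp2*, a protease able to activate factor VII, had -0.32 ± 0.07 (adjusted p = 0.00486). *Plg*, the plasmin precursor, had a log2 fold change of -0.30 ± 0.10 with an adjusted p of 0.0501, at the threshold.

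The carboxylase of the vitamin K-dependent members, *Vkorc1* and *Vkorc1l1* did not share a direction. *Ggcx*, the carboxylase itself, averaged 37.8 ± 3.76 CPM in A226Y mice and 47.3 ± 7.97 CPM in WT mice, and was called lower (-0.32 ± 0.09, adjusted p = 0.0178). *Vkorc1*, which recycles vitamin K, was not called (-0.12 ± 0.06, adjusted p = 0.217), and its relative *Vkorc1l1* was called higher (0.16 ± 0.05, adjusted p = 0.0292). Both subunits of the asialoglycoprotein receptor, which removes desialylated glycoproteins from plasma, were called lower, *Asgr1* with -0.31 ± 0.08 (adjusted p = 0.0155) and *Asgr2* with -0.44 ± 0.09 (adjusted p = 0.00461). *Lman1*, the cargo receptor for factors V and VIII, had -0.03 (adjusted p = 0.731).

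**Figure D4:**
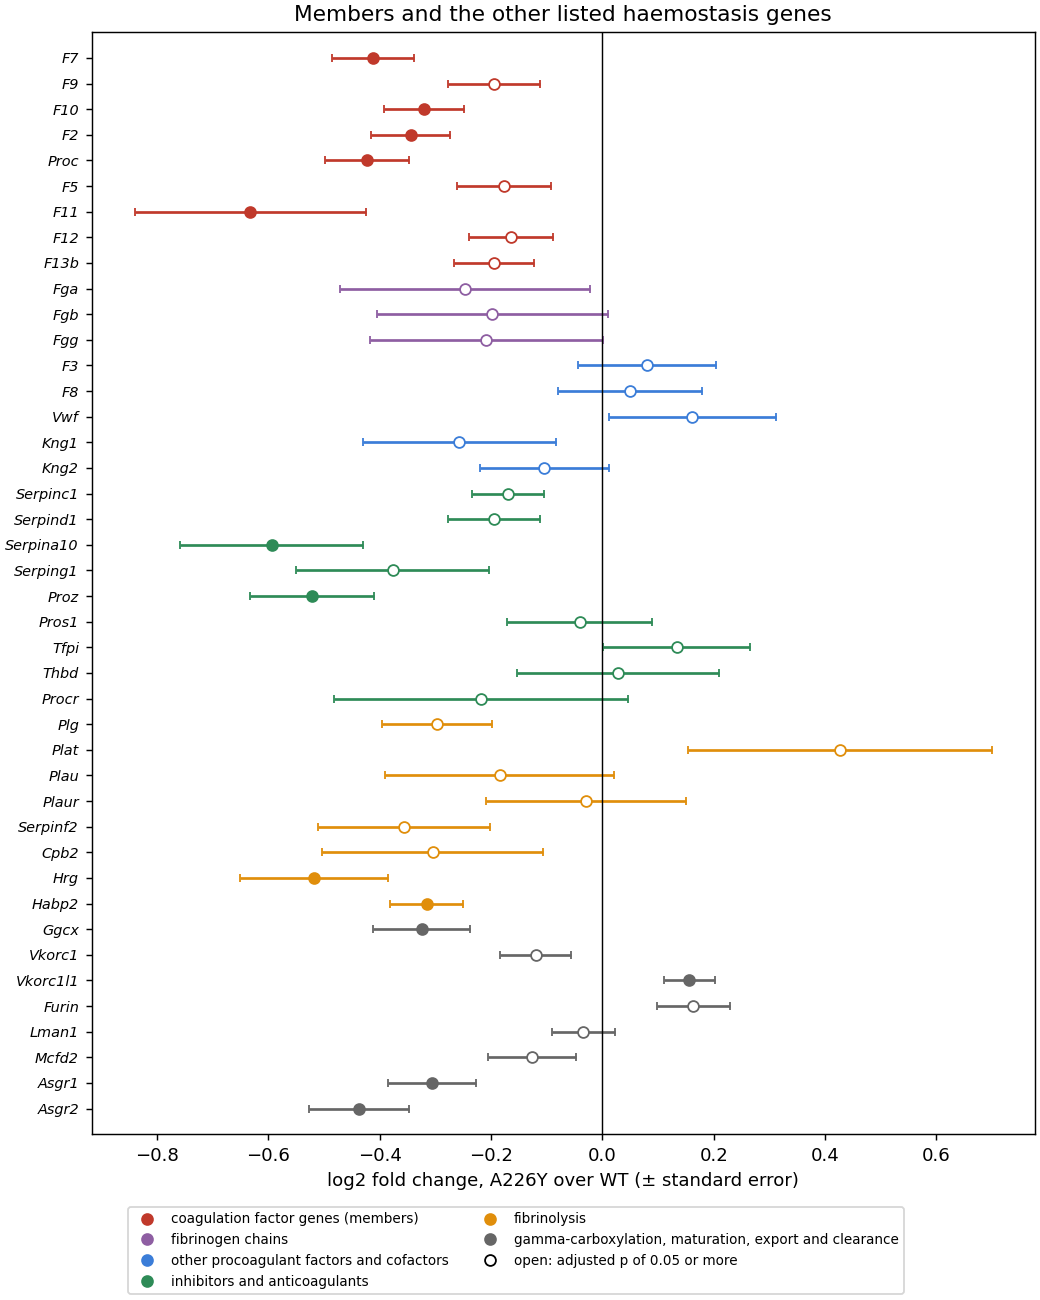
Log2 fold change (A226Y over WT, ± SE) of the 9 members and the 33 other tested haemostasis genes, coloured by role, with filled points for an adjusted p under 0.05 and open points otherwise. All 9 members lie left of 0, as do 25 of the 33 other genes, and the filled point right of 0 is *Vkorc1l1*.

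Lists of other hepatocyte genes give the surroundings in which the members were measured. Among 11 hepatocyte transcription factors, *Foxa2* was called lower (-0.33 ± 0.08, adjusted p = 0.0148) and none higher, with 0.08 for *Hnf4a* (adjusted p = 0.590), -0.33 for *Cebpa* (adjusted p = 0.0697) and -0.55 for *Esr1* (adjusted p = 0.0508). The likelihood ratio test called 2 of the 11 lower and DESeq2 called 3. Of 18 other secreted plasma proteins, 5 were called lower (*Apoa2*, *Gc*, *Fetub*, *Itih1* and *Serpina6*) and 1 higher (*Apob*), with a median of -0.20. Lower transcripts of secreted proteins were thus also found outside the clotting system, with a median between those of the members and of all genes.

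Markers of cell types were measured beside the members. Of 11 hepatocyte markers, 2 were called lower (*Apoa2* and *Asgr1*) and 2 higher (*Apob* and, with 0.55 and an adjusted p of 0.0137, *Cps1* of the urea cycle), with a median of 0.08 and summed levels of 86467 to 168209 CPM in A226Y mice and 112787 to 198647 CPM in WT mice. The lowest A226Y sum is that of A226Y 29, with the next at 138619 CPM. *Alb* alone averaged 96061.5 CPM in A226Y and 90852.8 CPM in WT mice, so these sums mostly reflect that gene. *Apoa2*, *Apob* and *Asgr1* were already counted in the lists above. Of 8 markers of Kupffer cells and macrophages, 7 had a negative value and 1 was called lower (*Clec4f*, -0.65, adjusted p = 0.0261), and 4 were lower at an unadjusted p under 0.05. Their sums ran from 278 to 1083 CPM (median 377) and from 416 to 841 CPM (median 604), with A226Y 29 at 1083 CPM and the next A226Y mouse at 708 CPM. Of 8 stellate cell markers, *Col1a1* and *Col3a1* were called lower, while the more abundant *Dcn* (0.18, adjusted p = 0.0913) and *Rgs5* (0.23, adjusted p = 0.0934) were higher at an unadjusted p under 0.05 (sums 364 to 437 and 349 to 428 CPM). Of 5 adipocyte markers *Cidec* was called higher (1.67, adjusted p = 0.0109, sums 25.5 to 71.7 and 10.8 to 51.8 CPM), while *Adipoq*, *Plin1* and *Lep* were below the count filter.

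The remaining marker lists had no call by edgeR, although 1 gene of megakaryocytes and platelets was called lower with DESeq2, and 1 of sinusoidal endothelial cells and 1 of T and NK cells were lower, and 1 of cholangiocytes and 1 of neutrophils higher, at an unadjusted p under 0.05. They were 8 genes of sinusoidal endothelial cells (sums of 395 to 722 CPM in A226Y and 443 to 738 CPM in WT mice), 6 tested of cholangiocytes (23.1 to 38.2 and 21.9 to 37.7 CPM), 7 of B and plasma cells (54.1 to 289 and 53.6 to 739 CPM) and 7 of T and NK cells (1.99 to 7.14 and 3.55 to 9.79 CPM). They also included 4 tested of neutrophils (2.12 to 42.4 and 1.76 to 16.5 CPM) and 4 tested of megakaryocytes and platelets (3.15 to 13.5 and 4.47 to 7.55 CPM). A226Y 29 gave the highest A226Y sum of both, with the next at 8.10 and 5.45 CPM, and WT 33 the highest WT sum, with the next at 4.38 and 6.06 CPM. All 7 markers of B and plasma cells and all 7 of T and NK cells had negative values, with medians of -0.36 and -0.42. In B and plasma cell markers the next highest sums were 173 CPM in A226Y and 388 CPM in WT mice. Of the listed markers in the count lists, none had 0 counts in all 18 libraries. The part of these cell types in the differences of the members was not tested.

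**Figure D5:**
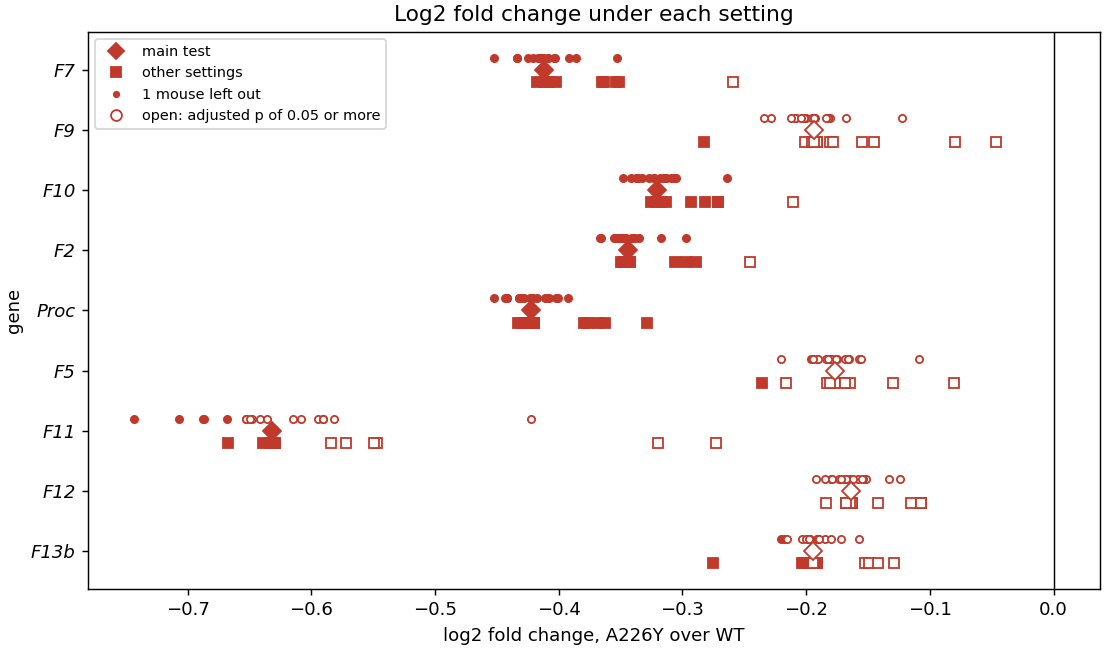
Log2 fold change of each member under the test used in the text (diamond), under the other settings (squares) and with 1 mouse left out at a time (small circles), filled where the adjusted p was under 0.05. All points lie left of 0, *Proc* is filled throughout, the open squares of *F7*, *F10* and *F2* are the fit with surrogate variables, and *F11* is open in most fits.

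No member changed sign under any setting. *Proc* was called in all of them, with an adjusted p of at most 0.0315, and *F2*, *F7* and *F10* were called in all except the fit with 4 surrogate variables (unlabelled sources of variation estimated from the data), where only *Proc* was called. There the log2 fold changes were -0.25 for *F2* (adjusted p = 0.0830), -0.26 for *F7* (adjusted p = 0.0580) and -0.21 for *F10* (adjusted p = 0.102). In the same fit *F11* had -0.32 (adjusted p = 0.303), *F9* had -0.05 (adjusted p = 0.786) and *F13b* had -0.13 (adjusted p = 0.291), while *F5* and *F12* both had -0.18 (adjusted p = 0.228 and 0.232) and *Proc* had -0.33. With an offset for GC content, *F9* (-0.28, adjusted p = 0.0208) and *F13b* (-0.28, adjusted p = 0.00782), the members with the lowest GC content of exons at 39.0% and 41.4%, were called as well, and with an offset for length *F5*, the longest member at 7430 bases, was called (-0.24, adjusted p = 0.0490). Both offsets moved *F12* to -0.11 (adjusted p = 0.347 with GC content and 0.391 with length), and the length offset moved *F9* to -0.16 (adjusted p = 0.240) and *F13b* to -0.15 (adjusted p = 0.191).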

How the data were processed

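Liver RNA of 18 mice was sequenced, and for each mouse the authors deposited raw read counts for Ensembl genes, in whole numbers and without normalization. The sample labels name fastp, STAR, featureCounts and GRCm38, whereas the published methods name RSEM and an older build, so the counting tool and its use of strand are uncertain. Total counts ran from 23850565 to 62126131 per A226Y mouse and from 25869192 to 34918732 per WT mouse. A member had from 496 to 120221 counts in a library, so counting error is small beside the spread between mice. Symbols, positions and exon lengths came from GENCODE M21 on GRCm38, where 22214 of 22524 identifiers matched and 310 did not.

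Genes reaching 10 counts in 50% or more of either genotype's libraries were tested with edgeR 4.0.16 in R 4.3.3 (TMM scaling, quasi-likelihood test, no covariates), with Benjamini-Hochberg adjustment over all 13353 genes. The exact permutation test took log2 CPM with a prior count of 2, two-sided, over all 43758 divisions of the mice, adjusted in the same way, and its smallest possible p is 2.29e-05. Correlations used residuals from the genotype means. Alternatives were other scalings and filters, DESeq2 1.42.0, limma-voom 3.58.1, the likelihood ratio test, 4 surrogate variables from sva 3.50.0, length and GC offsets, and leaving out each mouse. Scripts were tested on simulated counts. No libraries of a genotype were near-duplicates (lowest chi-square per degree of freedom between them 20.1).

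The members and lists were chosen with earlier results of these data known. Named genes were the members, listed genes with an adjusted p under 0.05, *Rps2*, a few core haemostasis genes, and the 5 genes most like the members. Further listed genes, neighbours and markers were named after their values were seen. Some genes of these lists are not reported here, and the counts leave them out.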

Additional observations from a re-analysis of the deposited data

Results flagged for a closer look

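The *F2* level of mouse WT 33 was 2957 CPM, with the next WT mouse at 2468 CPM. This gap is a share of 0.613 of the WT range, above Dixon's 95% critical value of 0.526 for 8 samples. It was the only such gap among 18 groups of member values (9 genes in 2 genotypes), and chance alone gives such a gap in about 1 in 20 groups. Without WT 33 the log2 fold change of *F2* was -0.30 (adjusted p = 0.00730) in place of -0.34, the smallest in size of the 18 fits that each left out 1 mouse.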

How the results depend on the processing

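With surrogate variables 1 member was called lower in place of 5, 248 genes were called in place of 1910, and 0 of the other haemostasis genes were called lower in place of 7. The cause was not tested. With 1 mouse left out, 4 to 6 members and 6 to 10 other haemostasis genes were called lower, and 1255 to 2560 genes were called in either direction, the lowest count of all genes without WT 14 and the highest without A226Y 29. Among single members, 147 of 162 values with 1 mouse left out kept their direction and side of the threshold, 13 lost the call, all of *F11*, and 2 gained it, both of *F13b* (without A226Y 3 or WT 6). Under the other settings 102 of 117 did, 10 lost the call and 5 gained it, and none reversed. *F11* lost it with library size alone (adjusted p = 0.0504), without the count filter (0.0564), with voom (0.0840) and with the length offset (0.0725). Scaling by library size alone moved the median of all genes to 0.04 and the share of calls that were higher from 50.8% to 67.9%, and the length offset moved that share to 41.6%. No paired analysis was possible because the sample labels name no pairs of mice. Depth did not limit the members, since the lowest had 496 counts.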
